A study of Mus musculus with 16 samples.

Results

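The comparison set 4 libraries of old runners against 4 libraries of young controls, 8 of the 16 libraries of the study. It asks what in the fibre RNA of old mice that had run still differed from that of young mice that had not. Old runners were C57BL/6 males of 22 months that could use a running wheel at will for 5 weeks, and young controls were C57BL/6 males of 4 months labelled as controls. RNA came from myofibres, freed of adhering mononuclear cells, of a fast hindlimb muscle, the extensor digitorum longus. The groups were taken from the labels alone, and no gene was chosen to define them. Age and running differ together between the 2 groups, so their parts in any difference below cannot be told apart. Levels in old controls (22 months, labelled as controls) and young runners (4 months, with a wheel for 5 weeks), also C57BL/6 males with 4 libraries each, are given beside the results for that reason. Separate animals are not stated for the 4 libraries of any group, so p-values measure only the spread between libraries, which may be technical.

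A myofibre is a single long cell with many nuclei, built from fused precursors and filled with sarcomeres. Fast fibres contract on glycolytic fuel to a larger extent than slow fibres, and endurance running is known to raise their mitochondrial and fatty acid enzymes. With age, muscle loses mass and force, some fibres lose their nerve contact, and connective tissue gains weight in the muscle. Immediate early genes, such as Fos, are switched on within minutes of contraction, stress or tissue handling, and their RNAs decay quickly.

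Libraries held 30.7 to 67.4 M assigned reads, and 13803 to 17565 genes had a read. Fibre genes led every library, with Acta1 or Atp2a1 on top and summed myofibre markers of 7806326 to 11906436 normalised reads in old runners and 8171381 to 8607925 in young controls. Normalised reads are reads divided by 1 size factor per library on the scale of the 8 libraries, and values are given for O1ex, O2ex, O3ex and O4ex among old runners and for Yc4, Yc5, Yc7 and Yc8 among young controls, in that order. The young control library Yc4 stood apart from its group. Its median rank correlation with the other young controls was 0.891 over 8511 genes, against 0.949 to 0.964 for the other young controls, and its level of Car3, carbonic anhydrase 3, was 48006 against 7189.8 to 12018 in the other 3. Counts are therefore also given without it. Among old runners O1ex was the least like its group, with a correlation of 0.942 against 0.966 to 0.969. It also held the fewest reads of the 8 libraries, 30.7 M.

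Of 13194 genes tested with limma voom, 77 were called at a Benjamini-Hochberg adjusted p under 0.05 (0.584%). Differences are old runner minus young control on the log2 scale, ± SE. In old runners 29 genes were higher (0.22%) and 48 were lower (0.364%). The 4 old runner values of each of the 77 lay all above or all below the 4 young control values. Over all genes tested, 1020 were all higher in old runners (7.73%) and 916 all lower (6.94%), and an unadjusted p under 0.05 was reached by 1407 higher (10.7%) and 1267 lower genes (9.6%). The median difference over all genes was 0.03 on the log2 scale. It moved to -0.08 when libraries were scaled by total reads, with 56 genes called, and differences of that size are relative to the scaling.

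The number of calls rested on single libraries. Without Yc4 the count was 376, with 183 higher (1.41% of 12984 genes) and 193 lower (1.49%), and 74 of the 77 genes were still called. Leaving out O1ex left 11 calls, O2ex 5, O3ex 3, O4ex 5, Yc5 50, Yc7 6 and Yc8 4. Dkk3, Amy1 and Ide were called in all 8 of these fits, with adjusted p of at most 0.0057, 0.0057 and 0.00985. Each of the other 74 genes lost its call in at least 1 fit. Foxo6os, an antisense RNA that was lower in old runners (-1.57 ± 0.16, adjusted p = 0.00868), was called in 7 of the 8. Its highest adjusted p, without O3ex, was 0.056. Over the 77 genes the highest adjusted p among those fits had a median of 0.172 and reached 0.191. All 77 kept their direction in every such fit that tested them, and 67 were tested in all 8.

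**Figure D1:**
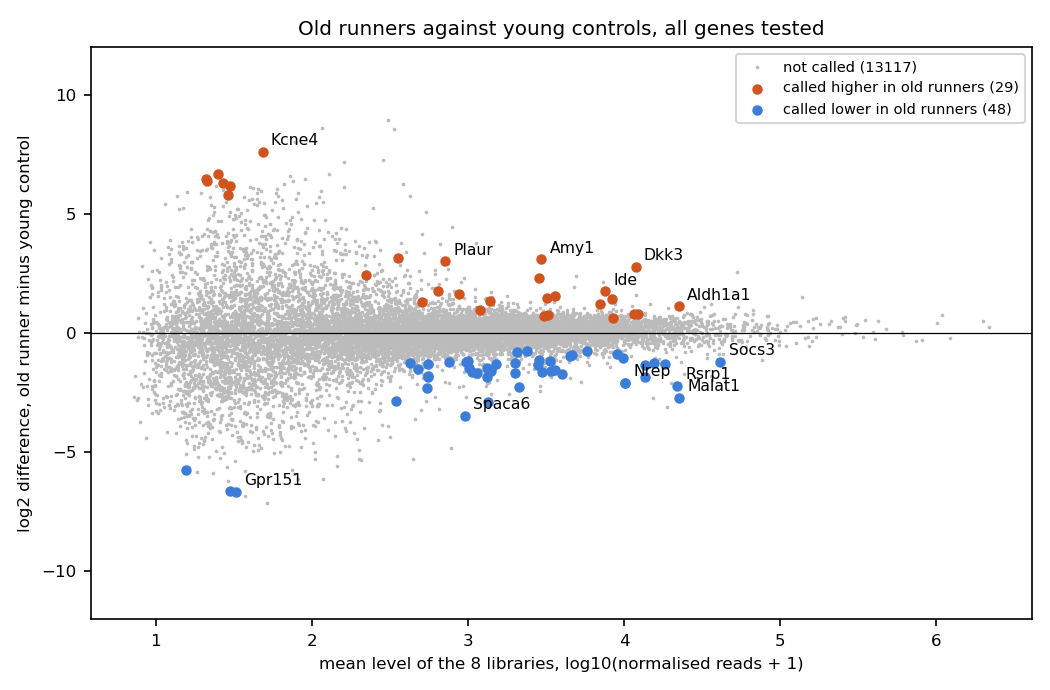
Each point is 1 of the 13194 genes tested, with its mean level in the 8 libraries (log10 of normalised reads + 1) on the x axis and its log2 difference, old runner minus young control, on the y axis. The 29 genes called higher are orange and the 48 called lower are blue, and Amy1 and Dkk3 stand farthest above 0 among called genes with a mean level above 1000 reads.

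The firmest differences were in 3 genes that were higher in old runners. Dkk3 encodes a secreted glycoprotein of the Dickkopf family, whose other members block Wnt signalling. It lies at chr7:112116017-112159057 (GRCm38, gene models of GENCODE M21, as for all positions of genes below). Its level was 22119, 20979, 16506 and 22804 normalised reads in the old runners and 4126, 2395, 3143 and 2519 in the young controls. The lowest old runner was about 4 times the highest young control, and the log2 difference was 2.78 ± 0.19, adjusted p = 0.000524. Amy1, an amylase that splits starch and glycogen chains, read 6629.7, 5348, 4228 and 4850.5 in old runners and 530.4, 726, 488 and 672 in young controls (3.12 ± 0.21, adjusted p = 0.000524). It lies at chr3:113555710-113606699, overlaps Rnpc3 and has near-identical copies in the amylase cluster, so the reads cannot be assigned to it with certainty. Ide, the insulin-degrading enzyme (chr19:37268743-37337852), read 12336, 10592, 11394 and 12605 against 2965, 4020.3, 3278 and 3519 (1.77 ± 0.14, adjusted p = 0.000896). In all 3 genes the groups were far apart and the spread within a group was small.

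These 3 genes differed with age among mice that had not run as well. Mean levels in old controls were 4345 ± 1122 for Amy1, 16300.5 ± 4124 for Dkk3 and 8992 ± 2416 for Ide (SD, n = 4). In young runners they were 1583 ± 350.5, 10701 ± 3671 and 6826 ± 1368. A fit of all 16 libraries called 87 of 14358 genes between old and young controls (0.606%), 7 between old runners and old controls (0.0488%), 273 between young runners and young controls (1.9%) and 4 between old and young runners (0.0279%). These comparisons share libraries with each other, so their values are set side by side and not counted against each other. Amy1 differed by 2.84 (adjusted p = 5.41e-05) between old and young controls, by 1.39 (adjusted p = 0.0185) between young runners and young controls, by 1.71 (adjusted p = 0.00268) between old and young runners and by 0.26 (adjusted p = 0.552) between old runners and old controls. For Dkk3 the same values were 2.42 (adjusted p = 0.00149), 1.79 (adjusted p = 0.00956), 0.99 (adjusted p = 0.977) and 0.35 (adjusted p = 0.552). For Ide they were 1.36 (adjusted p = 0.00313), 0.97 (adjusted p = 0.0192), 0.78 (adjusted p = 0.694) and 0.40 (adjusted p = 0.321). The old runner mean was above the means of both young groups for all 3 genes, and the difference from old controls was not called for any of them.

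**Figure D2:**
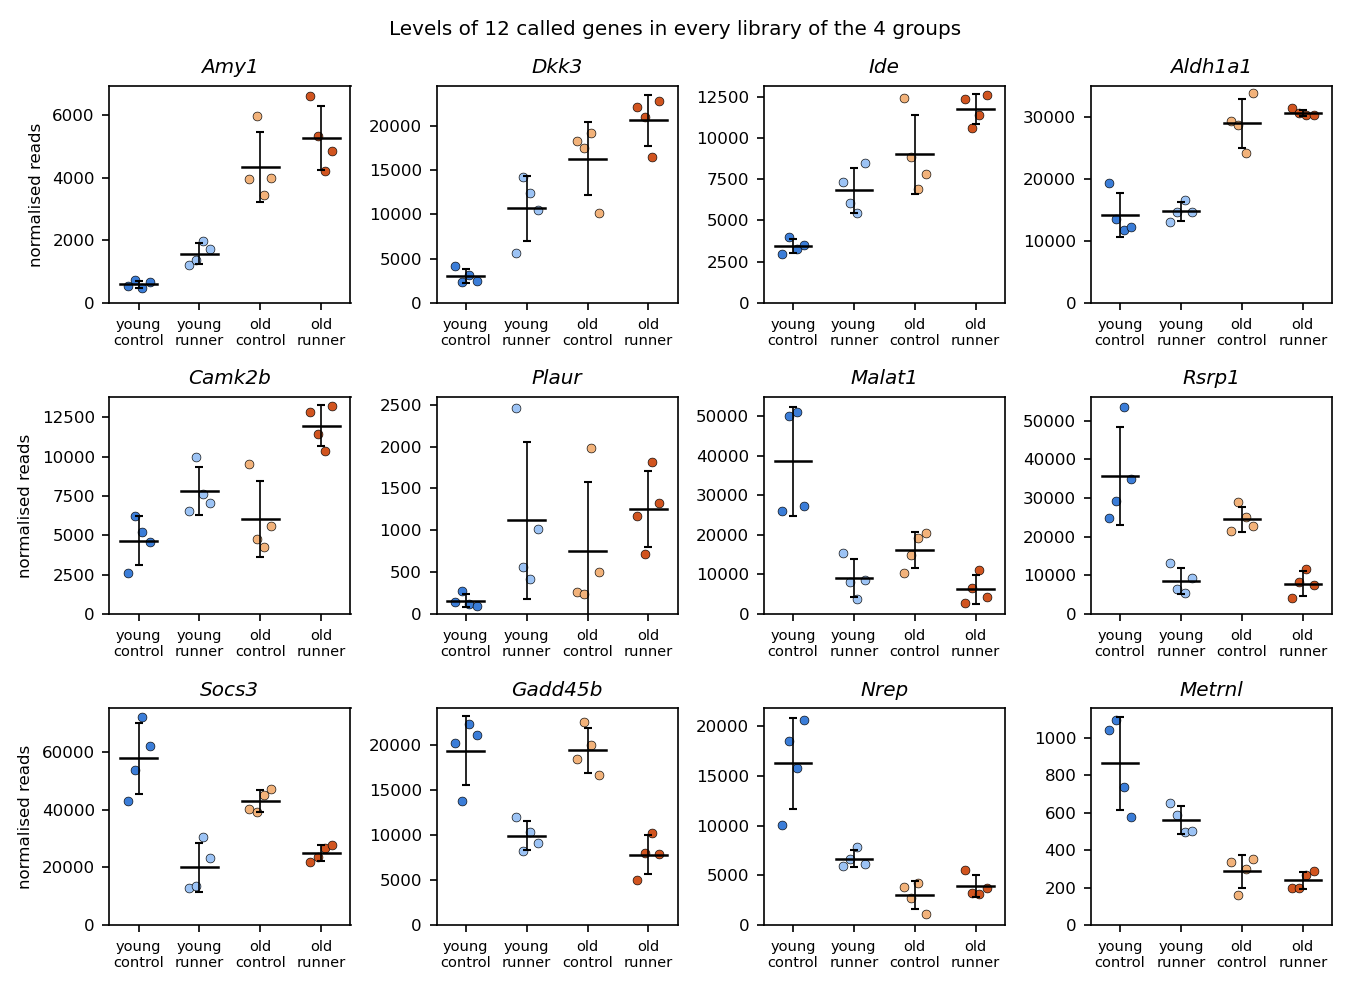
Normalised reads (y axis, from 0) of 12 called genes in every library of the 4 groups (x axis), with the mean as a bar and the SD as a whisker (n = 4). The old runner mean is nearer to that of old controls than of young runners for Amy1, Dkk3, Ide, Aldh1a1, Nrep and Metrnl. It is nearer to that of young runners for Camk2b, Plaur, Malat1, Rsrp1, Socs3 and Gadd45b.

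Aldh1a1, Oat, Gstm2 and Gsr, enzymes of different pathways, were higher in old runners. Aldh1a1, which oxidises retinaldehyde and other aldehydes, read 31455, 30601, 30262 and 30263 in old runners and 19404, 13505, 11716 and 12269 in young controls (1.14 ± 0.16, adjusted p = 0.0375). Old controls averaged 28996 ± 3954 and young runners 14786 ± 1498, and Aldh1a1 was 1 of the 4 genes called between old and young runners, with 1.04 (adjusted p = 0.0108). Oat, the ornithine aminotransferase of the mitochondrial matrix, read 16409, 15330.0, 14604 and 15535 against 10163, 9883, 7486 and 8167 (0.81 ± 0.14, adjusted p = 0.0439). Both other groups had mean levels near those of old runners, at 14602 ± 431 in old controls and 14205 ± 888 in young runners. Gstm2, a glutathione S-transferase, read 5262, 4531, 4693 and 4177 against 2690.1, 1505, 1499 and 1375 (1.46 ± 0.21, adjusted p = 0.0375), with Yc4 above the other young controls. Gstm2 belongs to a family of similar genes that may share reads. Gsr, which regenerates reduced glutathione, read 3828, 4009.7, 3522 and 3831 against 2071, 2598, 2239 and 2386 (0.71 ± 0.13, adjusted p = 0.0487). It was the 1 called gene of the antioxidant list, whose 26 genes had a median of 0.03, as over all genes, with 14 above and 12 below 0.

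Idh2 and Cd36, of mitochondrial fuel use, were higher too. Idh2, the isocitrate dehydrogenase of mitochondria that makes NADPH, read 13239, 9198, 8966 and 7852 in old runners and 5179.5, 4404, 3404 and 3924 in young controls (1.20 ± 0.19, adjusted p = 0.0428), with O1ex the highest. Cd36, the fatty acid transporter of the fibre membrane, read 16451, 14444, 14026 and 13903 against 8877, 9424, 7096 and 8862 (0.78 ± 0.13, adjusted p = 0.0439). Old controls averaged 9026 ± 2887 reads of Idh2 and 13284 ± 1534 of Cd36, and young runners 10009 ± 1209 and 11786 ± 2365, so the young controls had the lowest mean for both genes.

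The lists around them leaned the same way without further calls. All 31 genes of the citrate cycle and pyruvate entry list were tested. Their median difference was 0.42, 28 were above 0, 1 was called (Idh2) and 12 reached an unadjusted p under 0.05 in the higher direction, against a median of 0.03 and 10.7% over all genes. Ogdh, of the oxoglutarate dehydrogenase complex, read 53874 to 77673 against 27554 to 46892 (0.80 ± 0.18, adjusted p = 0.0708). Of the 39 fatty acid uptake and oxidation genes, 32 were above 0 with a median of 0.44, 1 was called (Cd36) and 15 reached the unadjusted threshold. Lpl, the lipoprotein lipase that frees fatty acids from circulating triglyceride, read 25207, 22588, 15988 and 18324 against 5766, 12926, 7683 and 9377 (1.24 ± 0.25, adjusted p = 0.0578). Its groups did not overlap, and without Yc4 it was called at 1.04 (adjusted p = 0.0407).

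The other energy lists differed among themselves. Over 54 nuclear genes of oxidative phosphorylation the median was -0.03, with 24 above and 30 below 0. Sdha, the flavoprotein subunit of succinate dehydrogenase, read 64919.6 to 90277 against 38248 to 58525 (0.74 ± 0.17, adjusted p = 0.0678), and Cox7b, a small subunit of cytochrome oxidase, read 12523 to 15125 against 19918 to 37120.3 (-1.02 ± 0.20, adjusted p = 0.0578). The 13 mitochondrially encoded genes tested of 15 listed had a median of -0.36 and none at an unadjusted p under 0.05. Glycolysis, glycogen and glucose transport genes had a median of 0.25, with 24 of 32 above 0 and 0 called. Of the 32, 10 were higher at an unadjusted p under 0.05, against 10.7% of all genes. Ppargc1a, a coactivator that drives mitochondrial genes, read 2777, 3239, 3671 and 3019 against 5045, 6727, 6293 and 3528 (-0.72 ± 0.21, adjusted p = 0.114).

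**Figure D3:**
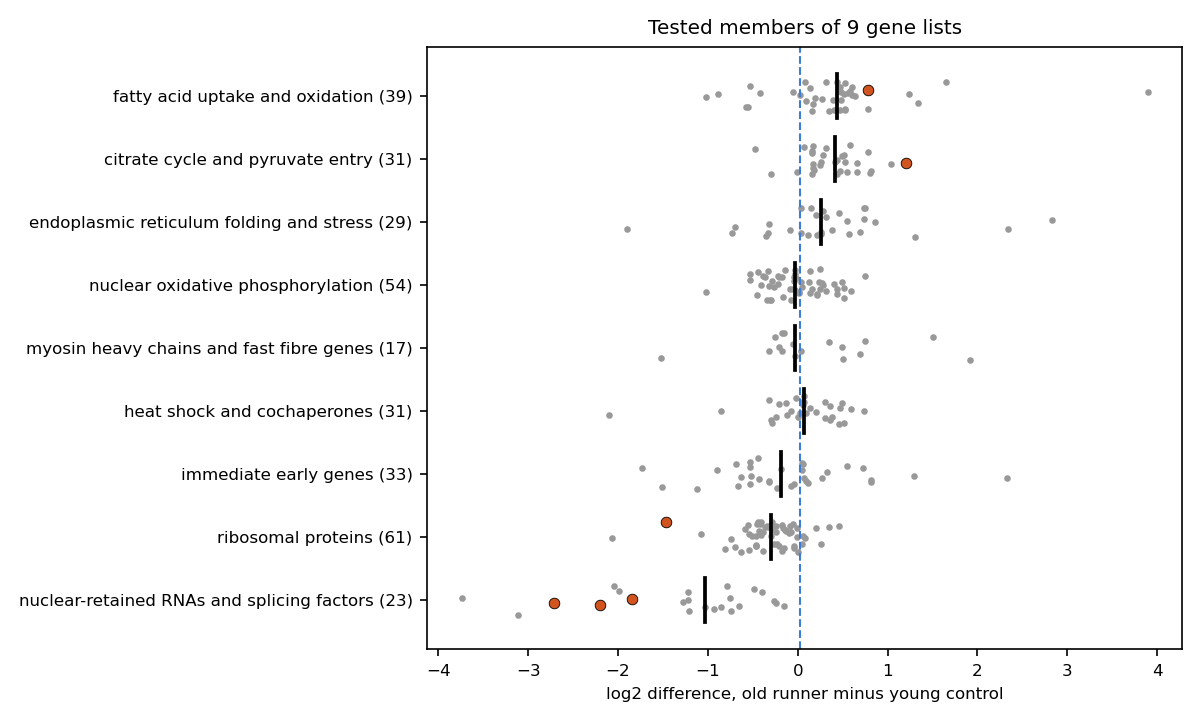
Each point is 1 tested member of a gene list, with its log2 difference, old runner minus young control, on the x axis and the list with its number of tested members on the y axis. Called members are orange, a black bar marks the list's median and the dashed line the median of all genes (0.03), and all 23 points of the nuclear RNA list lie below 0.

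A further set of called genes encodes kinases, channels, receptors and other signalling proteins. Camk2b, the beta subunit of calcium/calmodulin-dependent kinase II, read 12813, 11466, 10382 and 13195 in old runners and 2608, 6256, 5242 and 4569 in young controls (1.41 ± 0.24, adjusted p = 0.0449). Both other group means lay between, at 6038 ± 2403 in old controls and 7791 ± 1524 in young runners. Prkcz, an atypical protein kinase C, read 901, 1106, 717 and 1266 against 193, 232, 409 and 324 (1.77 ± 0.30, adjusted p = 0.0439), and Prkcq, the protein kinase C theta that skeletal muscle expresses strongly, read 10791, 10732, 9208 and 10782 against 6677, 6709, 6642 and 6744 (0.63 ± 0.11, adjusted p = 0.0487). For both kinases the mean of old controls (1141 ± 651 and 9588 ± 1887) was nearer to that of old runners than the mean of young runners (347 ± 114 and 7284 ± 973). Tmem37, a relative of the gamma subunits of calcium channels, read 6089.9, 4301, 4976 and 5732 against 2949, 1533, 1044 and 2111 (1.57 ± 0.28, adjusted p = 0.0487). Actr3b, an Arp3 form of the complex that branches actin filaments, read 1431, 1255, 1525 and 1056 against 482, 425, 385 and 391 (1.64 ± 0.19, adjusted p = 0.0208), with 1720.0 ± 253 in old controls, the highest group mean.

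Clic4, Plaur and Lgals3 varied more between libraries. Clic4, an intracellular chloride channel protein, read 3957, 3126, 7486 and 4350.1 in old runners and 908, 1374, 656 and 815 in young controls (2.33 ± 0.32, adjusted p = 0.0375), and O3ex was the highest. Plaur, the receptor of urokinase at the cell surface, read 1174, 716, 1816 and 1323 against 144, 279, 123 and 99.3 (3.01 ± 0.46, adjusted p = 0.0382). Young runners averaged 4224 ± 2708 and 1118 ± 933, and old controls 2517 ± 1655 and 747 ± 833, with an SD near the mean for Plaur in both. Summed endothelial markers ranked the old runners in the same order as both genes, from O3ex (7718) to O2ex (1874). Oc3 (9192.5) and Y1ex (10214) were the highest of their groups for the sum and both genes. The young controls followed another order, and the part of endothelial cells in Clic4 and Plaur was not tested. Lgals3, galectin 3, a sugar-binding protein of macrophages and many other cells, read 709, 489.9, 739.8 and 451 against 297, 27.7, 50.3 and 58 (3.13 ± 0.56, adjusted p = 0.0487). Summed macrophage markers overlapped between the groups, at 743 to 1836 in old runners and 643 to 2818 in young controls, with Csf1r, C1qa and Itgam at 0 in all old runners and C1qc, Ptprc, Laptm5 and Tyrobp at 0 in all young controls. Cd68 made up 58.8% of the sum in old runners and 75% in young controls. Of the other members, Cd163, a scavenger receptor of macrophages, read 102, 152, 159 and 95.4 in old runners and 29.2, 39.2, 73.9 and 42.2 in young controls (1.52 ± 0.47, adjusted p = 0.124), and Mrc1, their mannose receptor, read 0, 95.4, 100.3 and 37 against 389, 284, 226 and 336 (-3.02 ± 0.99, adjusted p = 0.136). The groups did not overlap for either gene, in opposite directions, and the part of macrophages in Lgals3 was not tested. Dach2, a transcription cofactor, read 288, 392, 337 and 447 against 88.6, 92.8, 35.1 and 88.8 (2.43 ± 0.40, adjusted p = 0.0439), with 120.4 ± 139 in old controls and 102 ± 80.2 in young runners.

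Several called genes were close to 0 in one group. Each gene of this paragraph passed the filter on low counts only through the group where it was high, could be tested in 4 of the 8 fits that leave out a library, and is given as a level. No young control had a read of Kcne4, a potassium channel subunit, against 76.3, 64.4, 162 and 76.3 normalised reads in old runners, at least 142-fold higher when 3 reads over the young controls are taken as the floor. On the same floor Slc26a10, of a family of anion transporters, was at least 73.0-fold, Plscr2 at least 61.0-fold and Cyp2j9, a cytochrome P450, at least 60.6-fold higher. Plscr2, a phospholipid scramblase, read 29.8, 34.1, 60.7 and 35.9 in old runners and averaged 62.4 ± 21.2 in old controls and 6 ± 12 in young runners. Kcnk2, the potassium channel TREK-1, read 44.7, 43.9, 67.7 and 64 in old runners and 0, 1, 2.3 and 0 in young controls. It was at 0 in all old controls and averaged 69.5 ± 29.4 in young runners, so reads were seen in both runner groups. In the other direction no old runner had a read of Gpr151, an orphan receptor, against 104, 68.9, 29.7 and 51 in young controls, at least 77.4-fold lower. Sfrp5, a secreted antagonist of Wnt signalling, read 40.9, 62.1, 52.8 and 49.4 in old runners and 2.2, 0, 0 and 0 in young controls, with 25 ± 30.2 in old controls and 10.1 ± 15.2 in young runners. Grin2c, a glutamate receptor subunit, read 35.4, 81, 43.1 and 68.4 against 0, 1, 0.8 and 0, with 64.8 ± 77.9 and 118 ± 144. These genes are at the lower end of the levels tested, and their fitted differences depend on the prior count of the fit, so none is printed.

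The remaining higher genes with a known product were expressed at moderate levels. Os9, a lectin of the quality control of the endoplasmic reticulum, read 729.6, 665, 754 and 743 in old runners and 249, 335, 256 and 332 in young controls (1.31 ± 0.20, adjusted p = 0.0378). Kif3c, a kinesin motor subunit, read 1638, 1418, 1641 and 1639 against 663, 801, 849 and 882 (0.97 ± 0.16, adjusted p = 0.0428). Asrgl1, an asparaginase, read 3890.0, 3867, 4016 and 4693 against 2771, 2379, 2198 and 2346 (0.77 ± 0.14, adjusted p = 0.0469). Old controls averaged 575 ± 261, 1039 ± 372 and 3366 ± 958 for these 3 genes, and young runners 648 ± 122, 1434 ± 472 and 3088 ± 931, so the young controls had the lowest of the 4 means for each.

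Among the lower genes were a nuclear RNA and genes of splicing. Malat1, a long RNA held in nuclear speckles (chr19:5795690-5802672), read 2872, 6600.3, 11031 and 4353 in old runners and 26038, 50129, 51002 and 27331 in young controls, and the level fell by 2.71 ± 0.40 (adjusted p = 0.0378) on the log2 scale. Rsrp1, an arginine- and serine-rich protein gene, fell by 2.20 ± 0.33 (adjusted p = 0.0378), from 24765, 29141, 53651 and 35033 to 4031, 8201, 11760.3 and 7416. Ccnl1, cyclin L1, which takes part in splicing, fell by 1.85 ± 0.30 (adjusted p = 0.0439), from 16294, 22549.8, 28070.2 and 17985 to 3698, 7194, 9456 and 4158. In all 3 genes O1ex was the lowest of the 8 libraries and O3ex the highest old runner. Without O1ex the falls were 2.42, 1.93 and 1.65, and no call remained among the 3. Mean levels in young runners were 9026 ± 4791, 8585 ± 3444 and 6392 ± 1868, and in old controls 16275 ± 4604, 24532 ± 3267 and 11858 ± 1932, so both runner groups had lower means than either control group.

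The list of nuclear-retained RNAs and splicing genes holds 28 names, and 23 were tested. All 23 were below 0, the median was -1.03, 3 were called and 17 reached an unadjusted p under 0.05, against 9.6% of all genes. Without Yc4 6 of the 23 were called lower, against 1.49% of all genes, and the median was -0.95. Neat1, the RNA scaffold of paraspeckles, read 1219, 7865, 9278 and 1280.2 against 19798, 35319.6, 55139 and 21639.6 (-3.12 ± 0.67, adjusted p = 0.0637), and Ccnl2 read 914, 3007, 3446 and 1206 against 5716, 10395, 11842 and 6074 (-2.04 ± 0.43, adjusted p = 0.0637). O1ex and O4ex were the lowest libraries for both. Over the 16 libraries the list's median was -0.24 between old and young controls, -0.92 between young runners and young controls and -0.68 between old runners and old controls. RNA of nuclei and RNA of the cytoplasm were not measured apart, and a smaller share of nuclear RNA cannot be told from a lower level per nucleus in bulk libraries.

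Of the genes with the largest falls, Spaca6, Taf1d, Mir99ahg and Arpp21 contain microRNA genes, and sequences are shown for all but Taf1d, whose values follow below. Spaca6, known for sperm-egg fusion, lies at chr17:17827158-17843009 and read 91.2, 139, 206 and 131 in old runners and 1423, 1155, 3341 and 1153 in young controls (-3.47 ± 0.59, adjusted p = 0.0444), with Yc7 far above the rest. Mir99ahg, a long noncoding host gene at chr16:77236317-77773427, read 37.2, 68.9, 173 and 60.6 against 775, 620.0, 616 and 401 (-2.85 ± 0.49, adjusted p = 0.0449). Arpp21, a cAMP-regulated RNA-binding phosphoprotein at chr9:112065091-112235938, read 551, 383, 810.2 and 645 against 1686, 1872, 2836 and 1854 (-1.83 ± 0.27, adjusted p = 0.0378). Spaca6 carries Mir99b, Mirlet7e and Mir125a at chr17:17830194-17830879, and Mir99ahg carries Mir99a, Mirlet7c-1 and Mir125b-2 at chr16:77598936-77646339. The mature 5′ arms are shown because the 2 clusters hold the same 3 seeds, and the arm of Arpp21's Mir128-2 stands last. Sequences are from RefSeq (GRCm38.p6), 5′ to 3′, with the seed, bases 2 to 8, in capitals.
mmu-miR-99b-5p: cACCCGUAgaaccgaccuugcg
mmu-miR-99a-5p: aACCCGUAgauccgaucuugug
mmu-let-7e-5p: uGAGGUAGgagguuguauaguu
mmu-let-7c-5p: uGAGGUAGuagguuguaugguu
mmu-miR-125a-5p: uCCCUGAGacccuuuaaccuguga
mmu-miR-125b-5p: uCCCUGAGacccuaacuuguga
mmu-miR-128-3p: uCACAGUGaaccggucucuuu

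Reads of the host genes were counted, and mature microRNAs were not measured. The libraries keep no strand, so reads of a host cannot be separated from those of genes that overlap it. Within Arpp21, 2310075C17Rik on the other strand was itself called lower (-1.67 ± 0.24). Of the 75 called genes with a position in GENCODE M21, 5 hold a microRNA gene of the RefSeq table on their own strand, and all 5 were lower: Arpp21, Mir99ahg, Spaca6, Syne2 and Taf1d. Among 12846 tested genes with a position, 449 do (3.5%), with a median difference of 0.07 and 200 below 0, beside a median of 0.03 over all genes. This property was looked at after the calls were known. Spaca6 averaged 553 ± 372 in old controls and 449.8 ± 231 in young runners, and Mir99ahg 232 ± 94.5 and 80.3 ± 43.7. Taf1d, a subunit of the factor that loads RNA polymerase I and a host of small nucleolar RNAs, read 102, 401, 812 and 130.2 against 2091, 2385, 3001 and 1732 (-2.90 ± 0.50, adjusted p = 0.0453). Syne2, nesprin 2 of the nuclear envelope, read 2246, 2241, 1962 and 1867 against 4682, 4557, 4119 and 5195 (-1.16 ± 0.14, adjusted p = 0.0208). Rab10os, antisense to Rab10, read 109.8, 171, 277 and 148 against 894, 1231, 904 and 613 (-2.30 ± 0.36, adjusted p = 0.04), and without strand its reads cannot be separated from overlapping genes. Rn18s-rs5, related to ribosomal RNA, read 5787, 3674, 2429.6 and 3218 against 29531, 9788, 14574 and 11876 (-2.08 ± 0.36, adjusted p = 0.0453) and has many near-identical copies.

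Socs3 and Gadd45b, known as genes of the response to cytokines and stress, were lower. Socs3, which damps signalling of interleukin 6 through STAT3, fell by 1.20 ± 0.17 (adjusted p = 0.0375), from 43112, 53635, 72285 and 62281 to 21789, 23470.5, 26581 and 27705 normalised reads. Gadd45b, a stress-induced gene of the p38 pathway, fell by 1.32 ± 0.23 (adjusted p = 0.0483), from 20216, 13734, 22323 and 21043 to 4958, 8032, 10197 and 7930.4. Young runners averaged 20053 ± 8449 and 9925 ± 1610.3 reads, and old controls 42935 ± 3856 and 19367 ± 2509. In the fit of 16 libraries Gadd45b was 1 of the 7 genes called between old runners and old controls, with -1.34 (adjusted p = 0.0242), and between old and young controls it differed by 0.02 (adjusted p = 0.979).

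The immediate early genes as a list had no call. Of 35 listed, 33 were tested, with a median of -0.18 and 19 below 0. Of the 33, 10 were lower and 1 higher at an unadjusted p under 0.05, against 9.6% and 10.7% of all genes. Zfp36, which speeds the decay of AU-rich messenger RNAs, read 10700.2, 9140.1, 10352 and 10871 in old runners and 19071, 23543, 56398 and 52128 in young controls (-1.73 ± 0.34, adjusted p = 0.0578). Fos read 34738, 40716, 52167 and 65633 against 89882, 71772, 131679.7 and 126287 (-1.12 ± 0.25, adjusted p = 0.0667). In both genes every old runner was below every young control, and without Yc4 both were called, Zfp36 at -2.01 (adjusted p = 0.0152) and Fos at -1.18 (adjusted p = 0.0486). Dnajb1, a cochaperone of the heat shock response, read 5217, 4148, 9085 and 11464 against 21394, 17422, 38954 and 51877 (-2.10 ± 0.41, adjusted p = 0.0578), while the heat shock list had a median of 0.07 with 20 of 31 above 0.

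Nrep, Metrnl, Tceal8 and Smox were lower by more than 1 on the log2 scale. Nrep, a neuronal regeneration-related protein also known as P311, read 5515, 3193, 3108 and 3772 in old runners and 10108, 18556, 15847 and 20671 in young controls (-2.08 ± 0.26, adjusted p = 0.0228). Metrnl, a secreted meteorin-like factor that muscle releases, read 197, 199.9, 266 and 289.5 against 1043, 1098, 736 and 578 (-1.80 ± 0.31, adjusted p = 0.0449). Mean levels in old controls were 2996 ± 1388 and 286 ± 88.8, and in young runners 6676 ± 855 and 560.3 ± 73.9. The difference between old and young controls was -2.56 (adjusted p = 0.00209) for Nrep and -1.63 (adjusted p = 0.0269) for Metrnl. Tceal8, of the family of elongation factor A-like genes, read 166, 191, 376 and 209 against 1217, 612, 847 and 816 (-1.85 ± 0.33, adjusted p = 0.0487). Smox, spermine oxidase, read 9643, 9401, 7651 and 9328 against 13768, 22412, 26279 and 26149 (-1.26 ± 0.21, adjusted p = 0.0439), with Yc4 the lowest young control. Paox, polyamine oxidase, had higher values in old runners and missed the threshold, with 287, 265, 291 and 323 against 117, 75.6, 120.4 and 83.5 (1.57 ± 0.29, adjusted p = 0.054). Sat1, which acetylates spermidine and spermine, missed it as well and read 1387, 6719.9, 9844 and 2005 against 22418, 25817, 28372 and 25196 (-2.71 ± 0.52, adjusted p = 0.0568).

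Insig1, which holds the sterol sensor of the endoplasmic reticulum in place, read 599, 484, 538 and 717 in old runners and 1551, 1357, 1465 and 1048 in young controls (-1.23 ± 0.20, adjusted p = 0.0439). It was the only called gene of 23 tested in the cholesterol synthesis list, whose median was 0.17. Mlxipl, the glucose-sensing factor ChREBP, read 3356, 3227, 3046 and 2386 against 5325, 5889.8, 7368 and 5129 (-0.98 ± 0.17, adjusted p = 0.0449). Hacd1, a dehydratase of very long fatty acid synthesis in muscle, read 2675, 1602, 1461 and 1794 against 3938, 4803, 6587 and 5896 (-1.55 ± 0.22, adjusted p = 0.0375). Dhrs7c, a dehydrogenase of the sarcoplasmic reticulum, read 4184, 4428, 4159 and 4352 against 7847, 6289.7, 7565 and 7438 (-0.76 ± 0.12, adjusted p = 0.0428), and its groups were tight. Alpl, tissue-nonspecific alkaline phosphatase, read 568, 432, 639 and 470.1 against 1247, 1472, 1920.2 and 1726 (-1.62 ± 0.22, adjusted p = 0.0359), with 418 ± 158 in young runners and 755 ± 199.7 in old controls. Myl6, a myosin light chain of smooth muscle and nonmuscle cells, read 834, 1573, 2455 and 1057 against 5386, 4563, 4395 and 3629 (-1.63 ± 0.29, adjusted p = 0.048).

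Other lower genes have products known from mitochondria, lysosomes or cilia. Atp5l, a small subunit of ATP synthase, read 269.9, 208, 311 and 229 in old runners and 498, 599.9, 643 and 628 in young controls (-1.25 ± 0.23, adjusted p = 0.0487). Cox19, an assembly factor of cytochrome oxidase, read 1668, 1423, 1554 and 1446 against 2524, 2402, 2632 and 2911 (-0.79 ± 0.14, adjusted p = 0.0446), and Metap1d, a methionine aminopeptidase of mitochondria, read 1310.3, 1459, 2029 and 1468 against 3362, 4564, 5185 and 3145 (-1.35 ± 0.21, adjusted p = 0.0428). Atp6v0b, of the proton pump of lysosomes, read 3655, 3215, 3239 and 2706 against 6655, 5395, 5788 and 6454 (-0.93 ± 0.14, adjusted p = 0.0378), and Idua, the lysosomal iduronidase, read 689, 545, 610.5 and 625 against 1037, 1559, 1649.6 and 1281 (-1.18 ± 0.20, adjusted p = 0.0449). Ift20, a subunit of the transport complex of cilia, read 387, 482, 538 and 401 against 1157, 964, 1114 and 1006 (-1.20 ± 0.18, adjusted p = 0.0378). In each of these 6 genes the highest old runner was below the lowest young control, as in every gene called lower.

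Mlf1, Cib2 and Mzt1 were lower at higher levels of expression. Mlf1, myeloid leukaemia factor 1, read 13042, 12099, 9517 and 8364 in old runners and 27796, 23184, 24159.6 and 28355 in young controls (-1.29 ± 0.16, adjusted p = 0.0272). Cib2, a calcium- and integrin-binding protein, read 6196, 7093, 5822 and 6583 against 16019, 11072, 13399.7 and 12825 (-1.04 ± 0.14, adjusted p = 0.0375), and Mzt1, of the gamma-tubulin ring that starts microtubules, read 5321, 6233, 7726 and 6266 against 14173, 11044, 10668 and 10965 (-0.87 ± 0.15, adjusted p = 0.0485). Old controls averaged 13391 ± 1891, 8286 ± 1868 and 8474 ± 969, and young runners 14067 ± 2755, 8173 ± 2206 and 5806 ± 1208. The young controls thus had the highest of the 4 means for all 3 genes.

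Most ribosomal protein genes lay slightly below 0. Of 61 tested, 54 were below 0 with a median of -0.29. An unadjusted p under 0.05 in that direction was reached by 12, against 9.6% of all genes, and 1 was called. Rpl10a, of the large subunit, read 690.5, 723, 879 and 514 against 1712, 2122, 2283 and 1621 (-1.46 ± 0.21, adjusted p = 0.0375). Ribosomal protein genes are short and have many processed copies. Over all genes in 4 equal bins of exon length, the bin with the shortest exons (57 to 2399 bases) had a median difference of -0.19 and the other bins, in order of length, 0.06, 0.15 and 0.09. With a smooth trend on exon length removed the ribosomal median was -0.23. That correction gave 225 calls, 117 higher and 108 lower, and 74 of the 77 were among them.

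No gene of the fast fibre, slow fibre, sarcomere or calcium coupling lists was called. Of 16 slow and oxidative fibre genes listed, 10 were tested, with 4 higher and 1 lower at an unadjusted p under 0.05. That threshold was reached by 10.7% of all genes in the higher direction and 9.6% in the lower. The 23 sarcomere genes had a median of 0.19, with 6 higher and 1 lower, and the 18 calcium coupling genes 0.20, with 1 higher and 2 lower. The 17 myosin and fast fibre genes had a median of -0.03, with 5 higher and 1 lower at an unadjusted p under 0.05. Myh1, the heavy chain of type 2X fibres, read 178924, 194379.6, 192566 and 231706 in old runners and 29956, 110238, 87894 and 83228 in young controls (1.50 ± 0.35, adjusted p = 0.0726), and Yc4 was the lowest of the 8. Without Yc4 its difference was 1.09 (adjusted p = 0.0137). Myh4, the heavy chain of the fastest 2B fibres, read 1068125, 1449693, 1276231 and 1553182 against 401529.8, 1149559.9, 966614 and 856492 (0.75 ± 0.30, adjusted p = 0.2), with overlapping groups. Myh2, of oxidative 2A fibres, ranged from 2503 to 20708 and from 23.5 to 5774, with O1ex high and Yc4 low (2.41 ± 1.33, adjusted p = 0.344).

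No gene of the list of the junction of nerve and fibre was called. Chrna1, the alpha subunit of the acetylcholine receptor, which rises when a fibre loses its nerve, read 2619, 1798, 1888 and 1932 in old runners and 871, 1329.9, 863 and 936 in young controls (1.03 ± 0.19, adjusted p = 0.054). Musk, the receptor kinase that organises the junction, read 1245, 1917, 1523 and 1860.3 against 493, 1242, 1036 and 745 (0.96 ± 0.28, adjusted p = 0.108). Of 23 genes of this list 16 were above 0, with a median of 0.28. At an unadjusted p under 0.05, 4 were higher and 1 lower, against 10.7% and 9.6% of all genes. Without Yc4 2 were called, both higher, against 1.41% of all genes. Old controls averaged 1406 ± 374 reads of Chrna1 and 669.7 ± 207 of Musk, and young runners 1636 ± 440.1 and 1530.5 ± 583.

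No gene of the atrophy, proteasome or autophagy lists was called. Fbxo32, the ligase atrogin-1, read 17888, 15049.8, 17863 and 17154 against 11837, 11971, 12029.9 and 14606 (0.43 ± 0.12, adjusted p = 0.109), and Trim63, the ligase MuRF1, read 63587 to 77184 against 58601 to 94702 (-0.04 ± 0.18, adjusted p = 0.922). Proteasome genes had a median of 0.12 over 35 genes, with 5 higher and 2 lower at an unadjusted p under 0.05. Over all genes that threshold was reached by 10.7% in the higher direction and 9.6% in the lower. Psmd2, a subunit of the regulatory particle, read 25320.4 to 33331 against 16182 to 20991 (0.68 ± 0.14, adjusted p = 0.0578). Autophagy and lysosome genes had a median of 0.14 over 33 genes, with 5 higher and 1 lower at an unadjusted p under 0.05. Folding genes of the endoplasmic reticulum had a median of 0.26, with 22 of 29 above 0 and 8 of them at an unadjusted p under 0.05. Pdia3, a disulfide isomerase, read 2836, 3099, 3454 and 3212 against 2049, 1918, 1537 and 2184 (0.73 ± 0.15, adjusted p = 0.0623), and Hsp90b1, the chaperone GRP94, read 3525, 2840.5, 3158 and 3585 against 1888, 2474, 1777 and 1674 (0.75 ± 0.16, adjusted p = 0.0637).

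Igf1, insulin-like growth factor 1, missed the threshold and was called without Yc4. It read 20.5, 78.8, 19.4 and 26.9 in old runners and 148, 591, 884 and 679 in young controls (-3.90 ± 1.22, adjusted p = 0.127). Every old runner was below every young control, old controls averaged 10 ± 9.6 and young runners 264 ± 140.0, and without Yc4 the difference was -4.39 (adjusted p = 0.0137). Of 49 interferon-inducible and antigen presentation genes, 39 were tested and 0 were called. Of the 39, 11 were higher at an unadjusted p under 0.05, against 10.7% of all genes. H2-K1, a class I antigen-presenting chain, read 1913, 1761, 2451 and 2204 against 1015, 1354, 927 and 1022 (0.96 ± 0.18, adjusted p = 0.054) and has relatives of like sequence, and B2m, its light chain, read 2304, 1668, 2284 and 2467 against 1765, 958, 782 and 1043 (1.0 ± 0.25, adjusted p = 0.08). Without Yc4 4 of the 39 tested were called higher, against 1.41% of all genes. Eda2r, a receptor of ectodysplasin, read 1578, 2942, 3962 and 2963 against 1349, 1464, 1178 and 1245 (1.11 ± 0.26, adjusted p = 0.0723). Bhlhe41, a repressor of the circadian clock, read 1623, 1571, 2286 and 1626 against 2947, 7706, 8106 and 4167 (-1.58 ± 0.34, adjusted p = 0.0637).

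Of the matrix list, 1 gene was called. This was Sparc, a collagen-binding matrix protein, with 2049, 2304, 2195 and 1433 normalised reads in old runners and 683, 602, 814 and 1011 in young controls (1.36 ± 0.22, adjusted p = 0.0439). It averaged 1742 ± 442 in old controls and 2123 ± 590.2 in young runners. Dcn, the collagen-binding proteoglycan decorin, read 983, 656, 1251 and 1098 against 1.1, 220.1, 12.2 and 103 (5.09 ± 1.10, adjusted p = 0.0637). Gsn, gelsolin, which fibro-adipogenic progenitors express strongly, read 2928, 1082, 2212 and 1929.9 against 13.5, 344, 129 and 340.2 (3.79 ± 0.78, adjusted p = 0.0623), and Postn, periostin, read 44.7, 38.6, 89.7 and 131 against 0, 0, 0 and 7.9. None of Dcn, Gsn and Postn passed the threshold. Of 35 listed matrix genes 23 passed the filter on low counts, some of them through the old runners alone, so no median or count by direction is given for the list.

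The summed level of 15 fibro-adipogenic progenitor markers was 3886 to 7000.1 normalised reads in old runners and 1607 to 2864 in young controls, without overlap. The groups differed in the largest member, which was Smoc2 with 77.5% of the sum in young controls and Gsn with 34.5% in old runners. Of the 15, Pdgfra, a defining marker, was at 0 in all old runners, and Mfap5 and Clec3b were at 0 in all young controls. The sum was 1065 to 4599.5 in old controls and 7201 to 17189 in young runners. The 18 endothelial markers summed to 1874 to 7718 in old runners and 688 to 1796 in young controls, again without overlap, and none was at 0 throughout a group of the 2. Schwann cell markers summed to 1371 to 1668 against 838 to 1215, with Sox10 at 0 in both groups and S100b, Mag and Ncmap also at 0 in young controls, and erythroid markers to 245 to 892 against 14.6 to 328. Adipocyte markers summed to 57450.3 to 105948 against 7784 to 48392, nearly all of it Car3, which fibres express as well, while Adipoq and Plin1 were not listed. The part of these cells in the matrix, vascular and immune genes was not tested, and more cells of a type cannot be told from more RNA per cell. Without Yc4 the fibro-adipogenic sums of young controls were 2195 to 2864, still below the old runners. Satellite cell markers summed to 260937 to 417919.9 against 170040.3 to 244099, nearly all of it Des, which fibres express. The smooth muscle sum was 18556 to 63635 against 35837 to 115629.8, of which Mustn1 made up 76.4% in old runners and 88.8% in young controls. Within that list 8 members were tested, with 5 above 0, 3 below 0 and 0 called, and Cnn1 was at 0 in all old runners. Its member Rgs5, a pericyte marker, read 985, 452, 2795 and 1574 in old runners and 5.6, 112, 23.6 and 396 in young controls (4.44 ± 1.38, adjusted p = 0.125), without overlap. The tenocyte (2774 to 4338 against 2483 to 2854) and lymphocyte sums (182 to 389 against 176 to 324) overlapped.

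**Figure D4:**
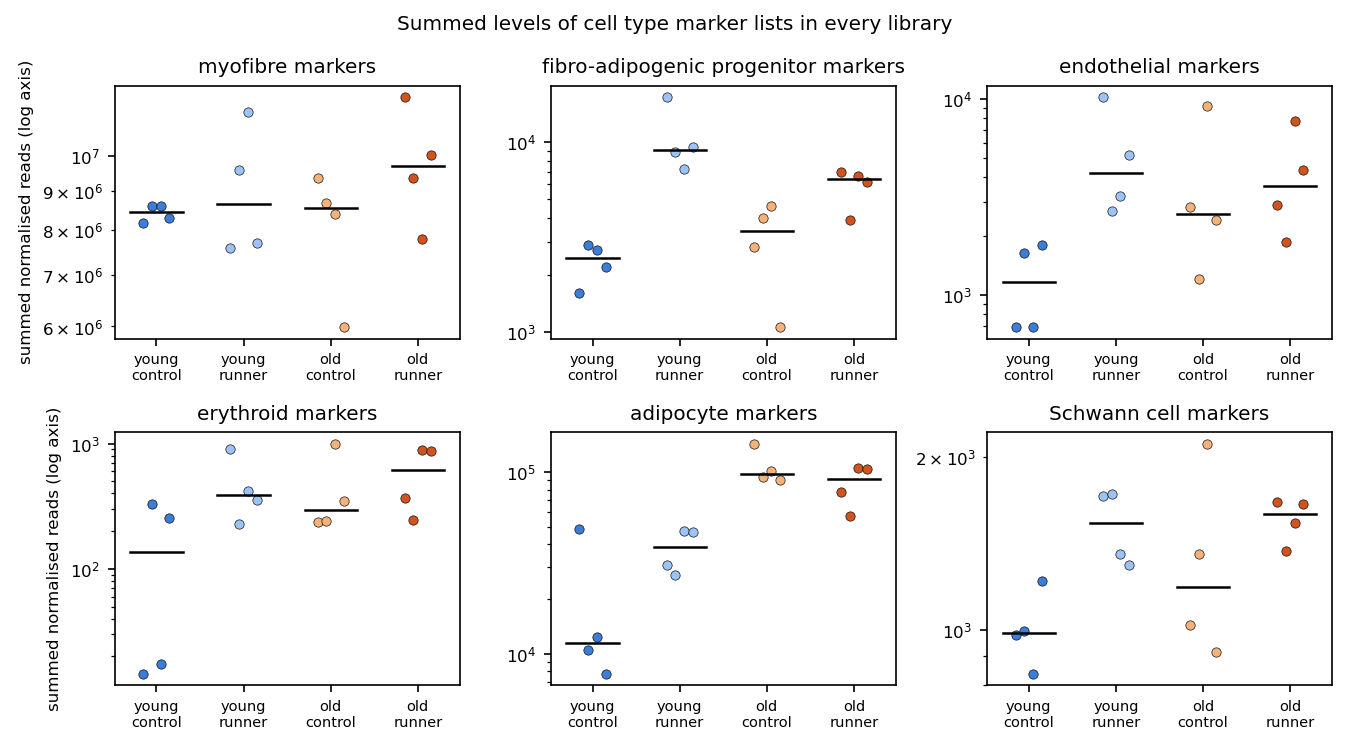
Summed normalised reads of 6 cell type marker lists (y axis, log scale) in every library of the 4 groups (x axis), with the median as a bar. Old runners lie above all young controls for the fibro-adipogenic, endothelial, Schwann and adipocyte lists, and the groups overlap for the myofibre and erythroid lists.

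Car3 and Gpx3 missed the threshold in 8 libraries and were called without Yc4. Car3 read 77019, 56610.5, 104762 and 103976 in old runners and 48006, 9946, 12018 and 7189.8 in young controls (2.55 ± 0.51, adjusted p = 0.0578), and without Yc4 the difference was 3.12 (adjusted p = 0.000959). Old controls averaged 106152 ± 24415 and young runners 37106 ± 10723. Gpx3, a secreted glutathione peroxidase, read 37038, 52109, 39216 and 46039.7 against 31702, 17427, 14224 and 20475 (1.11 ± 0.23, adjusted p = 0.0637) and 1.33 (adjusted p = 0.0129) without Yc4.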

How the data were processed

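Bulk RNA-seq of myofibres was measured in 16 libraries made from 10 ng of RNA by a low-input method that keeps no strand, per the labels. Per the submitters' processing notes the authors ran Trim Galore, STAR, featureCounts (Subread) and DESeq2 on mm10. Tool versions and gene models are not given in the sources used here. What they deposited are variance-stabilised log2 values, in 4 tables of 8 libraries. Their inverse gave whole reads for 100% of values within 0.02 (largest distance 0.0100). A table holds only genes with at least 2 reads over its libraries, so a gene in neither table of a group was taken as 0, up to 2381 in a library. PCR copies were not removed.

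The 8 libraries were scaled by median ratios and tested with limma 3.58.1 (voom) in R 4.3.3 on genes with 10 reads in at least 4 libraries, after a test on simulated data, and tabulated in Python 3.11.15. Control columns, O4ex and the young runner column Y4ex were matched to their group only, and the other runner columns by title. Date-like symbols (22) were tested and are not named.

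The comparison, gene lists and genes were chosen with earlier results of these data known. Named genes are up to 12 called genes in each direction with the largest difference and a mean of at least 100 normalised reads, the 2 smallest p and called members of each list, and a panel of 26 genes. Other called genes, Ccnl2, Neat1, Ogdh, Postn, Sat1, Mrc1 and the markers named at 0 or as the bulk of a sum were chosen after their values were seen. Alternatives in scaling, filter, test, exon length, libraries fitted and libraries left out were tried.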

Additional observations from a re-analysis of the deposited data

Results flagged for a closer look

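In 213 groups of 4 libraries, over marker sums and most genes described, 18 had a library far from the other 3 by Dixon's test at 95%, which flags about 1 group in 20 by chance. Among young controls, Yc4 stood above the others for Car3 (48006 normalised reads against 7189.8 to 12018), the adipocyte sum that Car3 makes up (48392 against 7784 to 12400), Lgals3 (297 against 27.7 to 58), Gstm2 (2690.1 against 1375 to 1505) and Mzt1 (14173 against 10668 to 11044). Yc7 was high for Spaca6 (3341 against 1153 to 1423) and Arpp21 (2836 against 1687 to 1872) and low for Dach2 (35.1 against 88.6 to 92.8). Yc5 was high for Chrna1 (1329.9 against 863 to 936), and Yc8 for Fbxo32 (14606 against 11837 to 12029.9).

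Among old runners, O1ex was high for Myh2 (20708 against 2503 to 4002) and Chrna1 (2619 against 1798 to 1932). O3ex was high for Kcne4 (162 against 64.4 to 76.3) and Bhlhe41 (2286 against 1571 to 1626) and low for Prkcq (9208 against 10732 to 10791) and Smox (7651 against 9328 to 9643). O2ex was high for Igf1 (78.8 against 19.4 to 26.9) and low for Kif3c (1418 against 1638 to 1641). For the called genes among these, as for all 77 called genes, the groups did not overlap with that library included.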

How the results depend on the processing

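The 77 calls (29 higher, 48 lower) became 249 (137 and 112) with no filter on low counts, 224 (111 and 113) with limma-trend, 1113 (573 and 540) with library quality weights, 225 (117 and 108) with the exon length trend removed and 420 (200 and 220) in the fit of all 16 libraries. A minimum difference of 1 on the log2 scale left 2, both higher and 0 lower, and by total reads 17 were higher. Leaving out 1 library gave 3 to 376 calls, 3 to 183 higher and 0 to 193 lower, the lowest without O3ex and the highest without Yc4. The fits with TMM scaling, upper quartile scaling, a filter of 50 reads and robust eBayes gave 65 to 75 calls, within 1.5 times of 77. Of the 77 genes, 39 were called in all settings but the minimum difference, and Amy1 and Dkk3 in all 11 settings. No called gene named here changed the sign of its difference under these alternatives. Causes of these shifts were not tested. No paired analysis was possible because runner titles carry numbers up to 4 and control titles 5 to 8, so no number is shared. With 4 libraries a group, each left-out fit keeps 3 in 1 group, and genes close to 0 in a group rest on few reads.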

Other observations

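Other gene lists showed no call in the 8 libraries. The 43 mitochondrial ribosomal protein genes had a median difference of -0.12 (log2), with 30 below 0 and 3 of them at an unadjusted p under 0.05, against 9.6% of all genes. The 20 circadian clock genes had a median of 0.01, with 2 higher and 3 lower at that threshold, which 10.7% of all genes reached in the higher direction. Genes of IGF, insulin and mTOR signalling had a median of 0.21 over 27, with 5 higher and 4 lower. The 17 MAP kinase phosphatase and Sprouty genes had a median of 0.07, with 0 higher and 1 lower. By limma voom, 1 clock gene was called higher and 1 lower without Yc4, against 1.41% and 1.49% of all genes.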
